A study of Rattus norvegicus with 6 samples.

Results

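The endothelin genes are the 3 ligand genes *Edn1*, *Edn2* and *Edn3*, the receptor genes *Ednra* and *Ednrb* and the converting enzyme gene *Ece1*. Their levels were read in skeletal muscle of 1-day-old male Wistar rat pups, 3 of lower birth weight (LBW) and 3 of average birth weight (ABW), with 1 NimbleGen single-colour array per pup. No treatment, diet or genotype separates the groups, and the tissue of a pup was its soleus pooled with its gastrocnemius. Birth weight placed the LBW group at percentiles 5 to 25, whereas the ABW group was at percentiles 50 to 75 in the protocol but at 25 to 75 in the sample labels. The litter of each pup is not given in the sources used here. Members were chosen by symbol, and each of the 6 genes had a single row matched to it. Only 36.9% of the rows were matched to a symbol, so further rows of these genes may be unmatched. The rows of the array make 26299 features once those of the same symbol are averaged. *Edn1* (NM_012548) was picked because its level differed between these same pups, and the other 5 genes were added as its family. The values of *Edn1* and of its relatives in this contrast are therefore a description, and no p-value is given for them.

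Endothelins are small vasoconstrictor peptides cut from larger precursors, first by furin-like proteases and then, at the step that frees the active peptide, by endothelin-converting enzymes. Endothelial cells are the best known source of endothelin 1, which acts mainly on vascular smooth muscle through the type A receptor. The type B receptor sits on endothelial cells, where it triggers nitric oxide release and clears the peptide, and on neural crest cells, where endothelin 3 acts on precursors of pigment cells and enteric neurons. Both receptors couple to G proteins of the Gq and Gi classes. The comparison asks whether the difference by birth weight was limited to *Edn1* or shared by its receptors and processing enzyme.

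*Edn1* was lower in all LBW pups than in all ABW pups, and no other gene of the family separated the groups. In log2 units of array signal, *Edn1* was at 6.37, 6.11 and 5.98 in LBW 1, 2 and 3, while ABW 1, 2 and 3 were at 7.60, 7.61 and 7.99. The groups did not overlap, and the pups nearest each other, LBW 1 and ABW 1, were 1.23 apart, which is 2.35-fold and more than 5 times the SD of either group. The LBW mean was 6.155 ± 0.20 (SD, n = 3) and the ABW mean 7.734 ± 0.22 (SD, n = 3), a difference of -1.58 (SE 0.15, 95% interval -1.95 to -1.21). On the linear scale the signal in LBW pups was 0.335 of that in ABW pups (95% interval 0.259 to 0.433). Of all 26299 features, 82 (0.312%) had a difference of this size or larger in either direction. Counting only features whose groups were separated by 1.23 or more, *Edn1* was among 2 that were lower in LBW, with 4 that were higher.

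The threshold of the study was a change of 1.5-fold, up or down, with p below 0.05. Whether that p was adjusted is not given in the sources used here, and the unadjusted p was used. By limma, 4.27% of all features passed it, 1.89% as lower and 2.38% as higher in LBW pups. Of the endothelin genes, *Edn1* alone was past it, and the other 5 were not. Since *Edn1* was listed for this difference, the count says nothing beyond its own value. *Edn1* was also the 1 gene of the 6 without overlap between groups, a pattern of 17.4% of all features (10.1% with LBW below and 7.27% with LBW above).

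**Figure D1:**
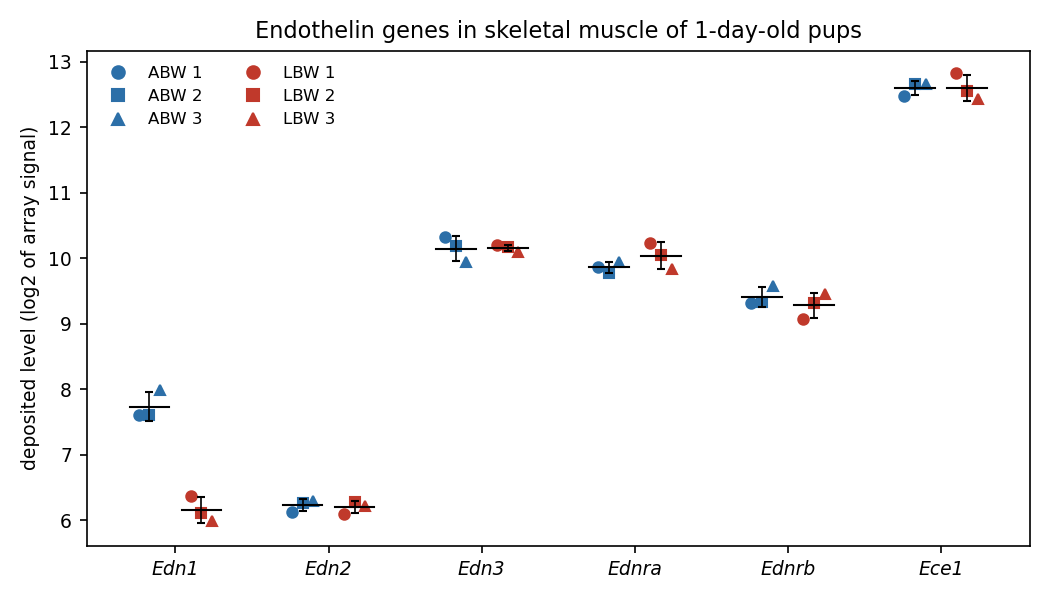
Deposited log2 level of each endothelin gene (y axis, log2 of array signal) in the 6 pups, with symbols for pups, horizontal lines for group means and bars for the SD (n = 3). Only *Edn1* shows LBW pups (5.98 to 6.37) apart from ABW pups (7.60 to 7.99), and heights of different genes depend on their probes and cannot be compared.

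The other ligands differed little between the groups. *Edn2*, which encodes the endothelin 2 precursor, was at 6.10, 6.28 and 6.21 in LBW 1, 2 and 3 and at 6.13, 6.26 and 6.29 in ABW 1, 2 and 3. Its pups were intermingled, with a difference of -0.03 (SE 0.09, 95% interval -0.25 to 0.20). *Edn3*, the ligand of neural crest development, was at 10.20, 10.18 and 10.09 in LBW pups and at 10.32, 10.18 and 9.94 in ABW pups. The LBW values lay inside the ABW range, and the difference was 0.01 (SE 0.12, 95% interval -0.27 to 0.29).

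*Ednra*, which encodes the type A receptor, was at 10.24, 10.05 and 9.84 in LBW 1, 2 and 3 and at 9.86, 9.77 and 9.94 in ABW 1, 2 and 3. LBW 1 and LBW 2 were above every ABW pup, but LBW 3 was below ABW 1 and ABW 3, so that the groups overlapped. The difference of 0.18 (SE 0.12, 95% interval -0.11 to 0.48) was the largest among these 5 genes and opposite in sign to that of *Edn1*. *Ednrb*, which encodes the type B receptor, was at 9.08, 9.31 and 9.45 in LBW pups and at 9.31, 9.34 and 9.58 in ABW pups. LBW 1 was the lowest and ABW 3 the highest of the 6 pups, with the others in between, and the difference was -0.13 (SE 0.13, 95% interval -0.45 to 0.18).

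*Ece1*, which encodes the main endothelin-converting enzyme, was at 12.82, 12.55 and 12.42 in LBW 1, 2 and 3 and at 12.47, 12.66 and 12.65 in ABW 1, 2 and 3. Both the highest and the lowest value belonged to LBW pups, and the difference was 0.00 (SE 0.13, 95% interval -0.30 to 0.31). For all 5 genes other than *Edn1* the 95% interval lay inside a 1.5-fold change in either direction, which is 0.58 on the log2 scale. Their median absolute difference was 0.03, compared to 0.13 over all features, and the median signed difference of all features was -0.02. The difference between *Edn1* and its relatives was not tested, because *Edn1* was chosen on this contrast.

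**Figure D2:**
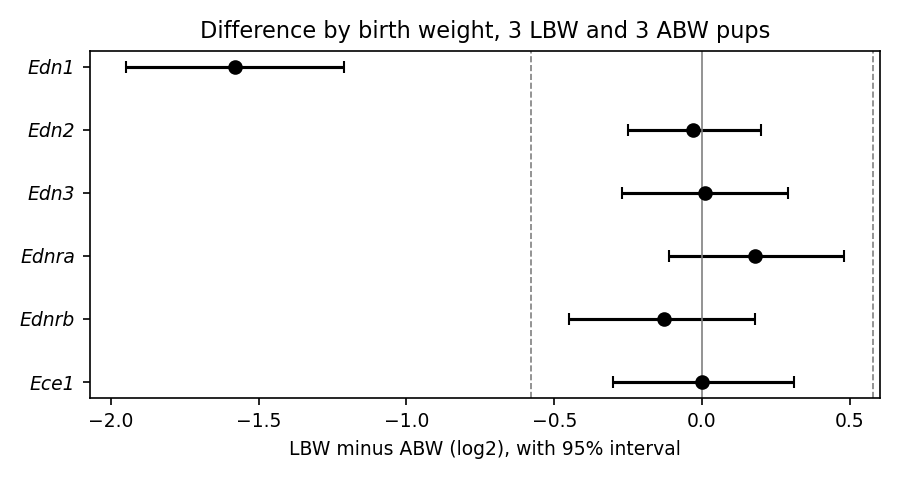
Difference in mean log2 level between LBW and ABW pups (x axis, LBW minus ABW) for each endothelin gene, with its 95% interval from limma, and dashed lines at a 1.5-fold change. *Edn1* is at -1.58, and the intervals of the other 5 genes lie between -0.45 and 0.48.

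The signal of *Edn1* was low in both groups. Olfactory receptor genes, which are not known for a role in muscle, served as a reference for dim rows, with 61 genes, a median level of 5.80 and a 5th to 95th percentile range of 5.01 to 8.20. The LBW mean of *Edn1* was above that of 62.3% of these genes in the same pups, and the ABW mean was above that of 90.2%. The mean of *Edn2* over all pups was above 70.5% of them, whereas *Edn3*, *Ednra*, *Ednrb* and *Ece1* were above the 95th percentile in every pup. Every value of *Edn1*, in ABW as in LBW pups, lay within the 5th to 95th percentile range of these genes. The deposited values hold no detection call, so how far *Edn1* and *Edn2* lay above background in either group is unknown here. The study also measured *Edn1* by qRT-PCR, on the RNA samples used for the arrays, and reported it as lower in LBW pups. Of the 61 olfactory receptor genes, 3 were past the threshold of the study, a share near the 4.27% of all features.

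The promoter of *Edn1* is shown because it holds, within a short stretch, letters matching factors long linked to its transcription, which were also measured on the arrays. RefSeq windows of the assembly GRCr8, from 250 bases before to 50 after the annotated start, were found for 5 of the 6 genes, all but *Edn3*. The stretch lies at chr17:22666784-22666909 on the minus strand, from 222 to 97 bases before the start. Capitals mark 4 motifs in order. The first is the motif of GATA-binding factors, GATAA, read on the opposite strand. Next comes the core motif of HIF-1, which is ACGTG, also read on the opposite strand. The third is TGACTAA, a motif like that bound by AP-1 dimers. The last is TATAAA, where the general transcription machinery binds.
Edn1: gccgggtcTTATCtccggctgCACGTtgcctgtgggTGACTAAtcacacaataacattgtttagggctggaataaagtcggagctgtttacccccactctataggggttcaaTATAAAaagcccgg

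The motifs were searched on both strands and none of those found overlaps another. The GATAA letters begin 214 bases, ACGTG 201, TGACTAA 186 and TATAAA 110 bases before the annotated start. Whether transcription begins at that annotated start was not tested, so these distances hold for the annotation only. Of all 33469 windows of this length, 26.5% hold GATAA, 19.3% ACGTG, 2.34% TGACTAA and 14.2% TATAAA. Of the 5 endothelin windows only that of *Edn1* holds any of these 4, and the AP-1 consensus TGACTCA, in 4.63% of all windows, is in none. The motifs were chosen with *Edn1* in mind, so their absence from its relatives is no result about those genes. A match of letters is a description and not a bound site, and no binding was measured here.

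Only 36.9% of the rows of the array could be matched to a symbol, so a gene of a list is called measured where its row was matched, and the others were not analysed here. Among the 12 measured genes of 13 known regulators of *Edn1* transcription, *Fos* was past the threshold as higher in LBW pups and none as lower. *Fos*, an immediate early gene whose product forms AP-1 with Jun, was at 9.77, 10.32 and 9.49 in LBW 1, 2 and 3 and at 8.86, 8.67 and 8.93 in ABW 1, 2 and 3. The groups did not overlap, and *Fos* was thus higher where *Edn1* was lower. Its difference was 1.04, or 2.05-fold (limma, adjusted p = 0.25 over all features), and leaving out any single pup kept it past the threshold, at 0.81 to 1.22. *Jun* averaged 9.84 ± 0.16 (SD, n = 3) in the LBW group, against 10.29 ± 0.27 (SD, n = 3) in the ABW group, and did not pass the threshold (difference -0.46, adjusted p = 0.35 by limma). *Hif1a*, the oxygen-regulated subunit of HIF-1, had a difference of -0.13, and *Gata2*, an endothelial GATA factor, of -0.11, neither past the threshold. *Klf2* and *Klf4*, shear-responsive factors of endothelium, had differences of -0.17 and -0.09, and *Tgfb1* and *Smad3* of 0.01 and 0.14. The level of *Klf2* lay within the range of the olfactory receptor genes. The median difference of the 12 genes was -0.07. *Jun*, *Hif1a*, *Gata2*, *Klf2*, *Klf4*, *Tgfb1* and *Smad3* are given for their link to the motifs or to endothelium and were named after their values were seen.

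Enzymes that process or degrade endothelins showed no gene past the threshold, in either direction, among 8 measured of 11 listed. The median difference was 0.07, and differences ran from -0.46 to 0.58. *Cma1*, a mast cell chymase that can cleave the endothelin 1 precursor, had the smallest p of the list. It was at 12.67, 12.60 and 12.76 in LBW 1, 2 and 3, below 12.78, 13.30 and 13.35 in ABW 1, 2 and 3 (difference -0.46, adjusted p = 0.352 by limma). *Ece2*, a relative of *Ece1*, had a difference of -0.28, and *Furin* of 0.19. *Mme*, which encodes the peptide-degrading neprilysin, was at 9.12, 8.03 and 9.66 in LBW 1, 2 and 3, and the ABW pups were at 8.04, 8.38 and 8.65. Its difference was 0.58, and it passed the threshold only without LBW 2 (1.03), while *Cma1* did so only without ABW 1 (-0.65). *Ece2*, *Furin* and *Mme* were named after their values were seen.

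Genes of receptor signalling also showed none past the threshold, in either direction, among 22 measured of 25 listed. The list holds G protein subunits, phospholipase C and inositol trisphosphate receptor genes, protein kinase C genes and regulators that switch receptors off. Its median difference was -0.05, and 13 genes were lower and 9 higher in LBW pups, from -0.37 to 0.45. The smallest p was that of *Itpr1*, a calcium release channel of the endoplasmic reticulum, at 9.33, 9.19 and 9.47 in LBW 1, 2 and 3 and 9.57, 9.81 and 9.73 in ABW 1, 2 and 3. All LBW pups were below all ABW pups for *Itpr1* (difference -0.37, adjusted p = 0.307 by limma). Without LBW 3, *Prkce*, a protein kinase C gene, passed the threshold (0.61, compared to 0.37 with all pups).

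In the other vasoactive systems, with all 30 listed genes measured, 1 gene was past the threshold as lower and 1 as higher in LBW pups. *Avpr1a*, the vasopressin receptor of vascular smooth muscle, was at 9.05, 9.26 and 8.81 in LBW 1, 2 and 3 and at 9.67, 9.62 and 9.77 in ABW 1, 2 and 3. The groups did not overlap, the difference was -0.64 (adjusted p = 0.25 by limma), and *Avpr1a* lost the threshold without LBW 3 (-0.53). *Tbxas1*, thromboxane synthase, was at 8.71, 9.25 and 9.18 in LBW 1, 2 and 3 and at 8.30, 8.45 and 8.57 in ABW 1, 2 and 3. It was higher in every LBW pup (0.60, adjusted p = 0.292 by limma), but not past the threshold without LBW 2 (0.50), LBW 3 (0.53) or ABW 1 (0.53). The median of the list was -0.09. Over the 4 lists together, 3 of 72 measured genes (4.17%) were past the threshold, compared to 4.27% of all features, and this share is near the background. Not all of these genes had a mean above the range of the olfactory receptor genes. Above it were 7 of 8 processing and degrading enzymes, 22 of 22 signalling genes, 9 of 12 regulators and 20 of 30 vasoactive genes. That count was 5 without LBW 2, where *Mme* and *Ptgs2* (-0.72) were among those that passed and *Tbxas1* did not.

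**Figure D3:**
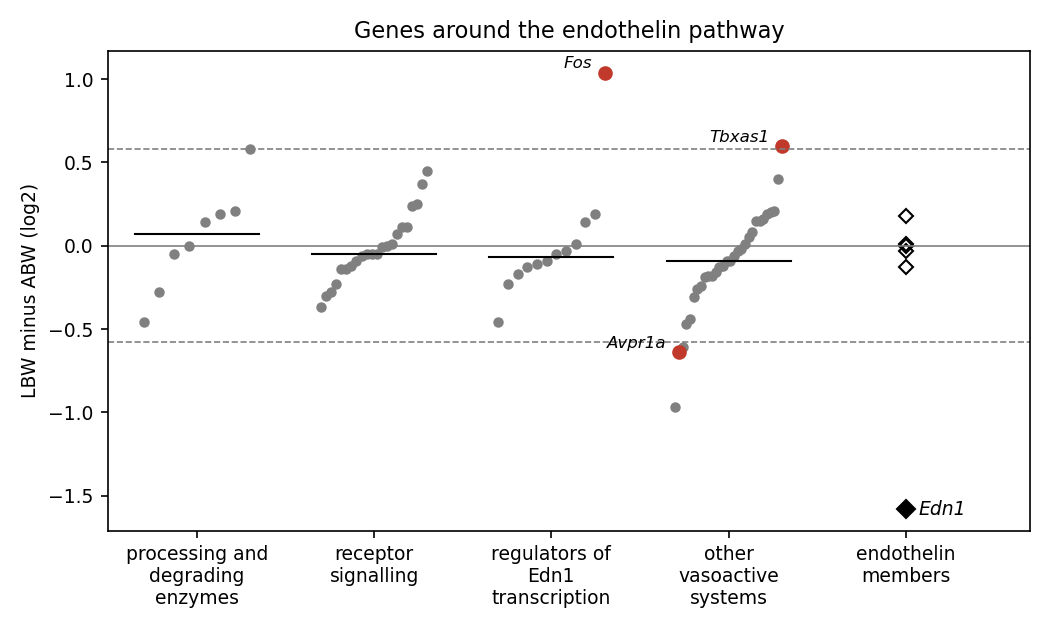
Difference in log2 level between LBW and ABW pups (y axis, LBW minus ABW) for each measured gene of the 4 pathway lists (grey), sorted within its list, with those past the threshold in red, list medians as black lines and dashed lines at a 1.5-fold change. The endothelin genes are diamonds, filled for *Edn1* (-1.58), and *Fos* (1.04), *Tbxas1* (0.60) and *Avpr1a* (-0.64) are the listed genes past the threshold.

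In whole muscle, fewer cells of a type and less RNA per cell cannot be told apart, so markers of cells that could supply or respond to endothelin were read beside *Edn1*. Of 15 endothelial markers 8 were measured, with 4 higher and 4 lower in LBW pups, none past the threshold and a median difference of -0.03. Their mean level ran from 11.00 to 11.05 in LBW and from 11.01 to 11.13 in ABW pups. *Pecam1*, an endothelial adhesion molecule, was at 12.11, 12.15 and 11.93 in LBW 1, 2 and 3 and at 12.02, 11.90 and 12.08 in ABW 1, 2 and 3, and *Kdr*, the main receptor of VEGF, had a difference of -0.12. *Esam*, with the smallest p of the list, was lower in every LBW pup (-0.29, adjusted p = 0.302 by limma). So was *Emcn* (-0.29, adjusted p = 0.37 by limma). These were the 2 of the 8 measured markers without overlap between groups, a pattern of 17.4% of all features. *Sox18* was the marker within the range of the olfactory receptor genes, and *Cdh5*, *Tek* and *Vwf* were not analysed here. *Pecam1*, *Kdr*, *Emcn* and *Sox18* were named after their values were seen.

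Of 12 markers of smooth muscle cells and pericytes, which carry the type A receptor, 9 were measured, with none past the threshold and a median difference of 0.02. *Cspg4*, a pericyte proteoglycan, had the smallest p (difference 0.37, adjusted p = 0.292 by limma). Schwann and neural crest cell markers, 8 of 9 measured, also had none past it, with a median of 0.09. In that list *S100b* was lower in all LBW pups (-0.50, adjusted p = 0.332 by limma), and it passed without LBW 2 (-0.59) or without ABW 1 (-0.64). Macrophage markers, 4 of 6 measured, had none past it and a median of -0.23, with *Aif1* at -0.19 (adjusted p = 0.547 by limma). Skeletal muscle fibre markers, 9 of 11 measured, had mean levels from 14.38 to 14.51 in all pups, as the labelled tissue would have, and none past the threshold. The one with the smallest p was *Des*, the muscle intermediate filament gene (0.22, adjusted p = 0.426 by limma).

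Some markers of bone and fat were past the threshold, none with an adjusted p under 0.05 by limma. Over all features, 2.38% were past the threshold as higher in LBW pups. Of 12 bone cell markers 11 were measured and 6 were past it in that direction, with a median of 1.58. These included *Spp1* (5.02, adjusted p = 0.25 by limma), *Ibsp* (4.73, adjusted p = 0.264), *Bglap* (3.60, adjusted p = 0.31) and *Phex* (0.60, adjusted p = 0.264). The study had itself named *Spp1*, *Ibsp* and *Bglap* from these arrays, so their direction is not independent evidence. The mean of the list, relative to the ABW mean, was 2.74, 0.44 and 3.55 for LBW pups 1, 2 and 3, and between -0.10 and 0.15 in ABW pups. In the same units *Edn1* was at -1.36, -1.62 and -1.75 in LBW 1, 2 and 3, so that the LBW pup with the least bone signal had an *Edn1* level between those of the others. The count of bone markers past the threshold was 3 without LBW 1 and 10 without LBW 2, while the difference of *Edn1* was -1.69 and -1.56 in these fits. It was -1.49 without LBW 3, where the bone median was 0.79.

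Of 9 adipocyte markers 8 were measured, all lower in LBW pups, with a median of -1.03. Over all features, 1.89% were past the threshold as lower in LBW pups. Of these markers 2 were, *Pparg* (-1.20, adjusted p = 0.302 by limma) and *Lep* (-1.57, adjusted p = 0.349 by limma). The study had itself named both from these arrays, so their direction is not independent evidence either. *Lep*, with a mean of 5.87 in LBW and 7.44 in ABW pups, lay within the range of the olfactory receptor genes. *Lep* held only without ABW 1 (-2.26) among the fits with 1 pup left out, and the median of the list was -0.40 without LBW 3. The mean of the list, relative to the ABW mean, was -0.52, -0.55 and -1.53 in LBW 1, 2 and 3 and -0.66, 0.42 and 0.25 in ABW 1, 2 and 3. LBW 3 was thus the lowest LBW pup for the fat markers, as for *Edn1*, but LBW 1 and LBW 2 were nearly level for the fat markers. ABW 1 was the lowest ABW pup for the fat markers, whereas *Edn1* was level in ABW 1 and ABW 2, at -0.13 in each. ABW 1 was below LBW 1 and LBW 2 for the fat markers, whereas *Edn1* was at -0.13 in ABW 1, above all LBW pups. Keratinocyte markers, 5 of 9 measured, were all lower in LBW pups without a gene past the threshold (median -0.59, and 0.02 without ABW 2), and 1 of the 5 was above the range of the olfactory receptor genes. *Krt14*, a basal keratin, had the smallest p of that list (difference -0.59, adjusted p = 0.576 by limma), and ABW 2 stood apart with a list mean of 1.06 above the ABW mean, compared to -0.85 in ABW 1 and -0.21 in ABW 3. *Edn1*, at 7.604 in ABW 1 and 7.607 in ABW 2, showed no such step. The difference of *Edn1* was -1.64 without ABW 1 and -1.64 without ABW 2. The part of bone, fat or skin cells in the level of *Edn1* was not tested beyond these values.

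**Figure D4:**
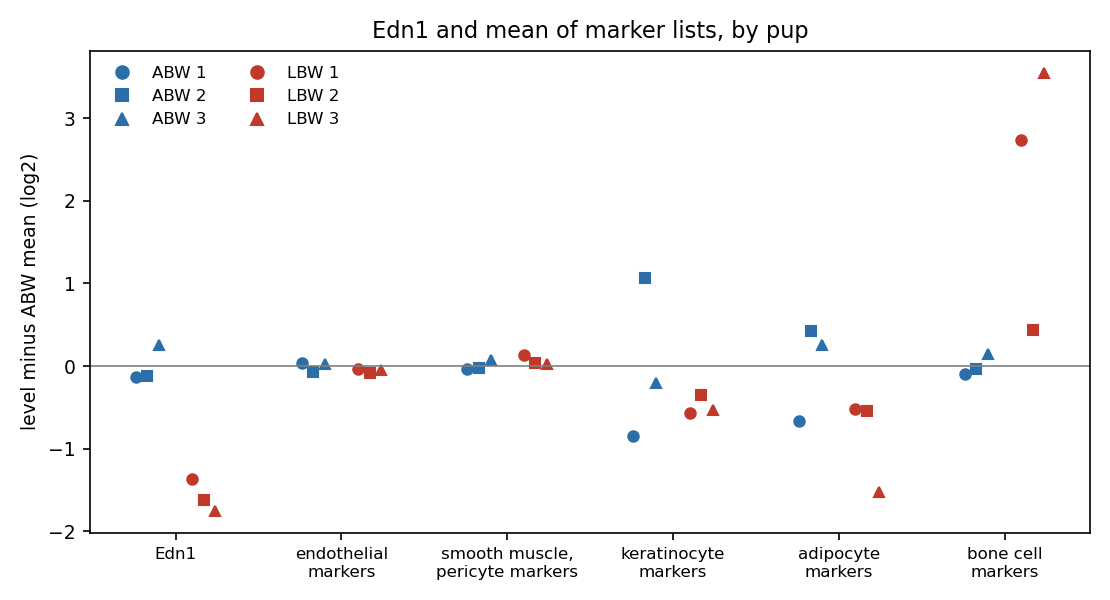
Level minus the ABW mean (y axis, log2) in each pup, for *Edn1* and for the mean of 5 marker lists, with symbols for pups. *Edn1* lies between -1.75 and -1.36 in the LBW pups, endothelial and smooth muscle markers lie near 0 in all 6, fat markers place the LBW pups in the order of *Edn1* but ABW 1 among them, and bone markers are lowest of the LBW pups in LBW 2.

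The named genes whose pattern over the 6 pups was most like that of *Edn1* were *Styxl1* (Pearson r = 0.9884), *Sertad3* (0.9876), *Spc25* (0.9873), *Arhgap29* (0.9862) and *Ang2* (0.9860). Of 9626 named genes compared, 58 had an r of at least 0.95 and 26 of at most -0.95, and with 6 arrays the separation of the 2 groups sets most of such an r. *Spc25* encodes a kinetochore protein, *Arhgap29* a GTPase-activating protein and *Ang2* a ribonuclease of the angiogenin family. All 5 were lower in every LBW pup, by 0.32 to 0.62 on the log2 scale, which is less than the 1.58 of *Edn1*. *Sertad3*, for example, was at 8.11, 8.07 and 8.02 in LBW 1, 2 and 3 and at 8.58, 8.64 and 8.64 in ABW 1, 2 and 3. The r of the endothelin relatives with *Edn1* lay between -0.43 (*Ednra*) and 0.41 (*Ednrb*).

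After Benjamini-Hochberg adjustment over all features, 0 had an adjusted p under 0.05 by limma, with 0.214 as the smallest, whereas 3250 had an unadjusted p under 0.05. The methods' test gave 0 after adjustment and 2501 before it. Without LBW 2, 125 features passed the adjusted threshold.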

How the data were processed

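Total RNA of 6 pups was hybridized by the authors to arrays with 5 probes per transcript. The authors normalized the signals in R with Bioconductor packages and scripts of their own, and deposited 1 log2 value per transcript and pup, and the submitters' processing notes name RMA. The log base is taken as log2 because RMA returns it, and folds rest on that. Background correction and other settings are not given in the sources used here. Array medians lay between 8.695 and 8.757.

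Accessions were named through a RefSeq table of GRCr8 (9747 rows, 9627 symbols), rows of a symbol were averaged, and all 26299 features were fitted without a filter by lmFit and eBayes of limma 3.58.1 (R 4.3.3), with 2-sided p-values adjusted by Benjamini-Hochberg. The fit was tested on simulated data. Arrays carry no count depth, and the 3 pups per group limit the precision.

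The members, the lists and the motifs were chosen with earlier results of these data known. Named from each list were genes past the threshold (at most 4) or the gene with the smallest p, and the 5 genes most like *Edn1*. Other genes were named after their values were seen. Alternatives were leaving out each pup, the replicate number as a block, quantile normalization, median centring, a filter on the dimmest 25%, weighting of arrays, variance priors that were robust or followed intensity, the methods' test (2-tailed Student's), a fold change of at least 2 and unaveraged rows.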

Additional observations from a re-analysis of the deposited data

How the results depend on the processing

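*Edn1* was past the threshold under all 16 alternatives, and it was the only endothelin gene past it each time. Its difference ranged from -1.69 to -1.45 with 1 pup left out and from -1.59 to -1.52 otherwise. The block, the dim filter, the variance priors, the methods' test, the higher fold change and unaveraged rows cannot change this difference. It stayed at -1.58 there. Only quantile normalization (-1.56), median centring (-1.59) and array weights (-1.52) could move it. *Edn1* was chosen for this difference, so its passing in each setting is a description. Differences of all 6 genes moved by less than the SD pooled over both groups, although with 1 pup left out *Edn3* moved by more than its SD in LBW pups (0.05), and *Ednra* and *Ece1* by more than theirs in ABW pups (0.08 and 0.11). The number of features past the threshold, 1124, was 584 by the methods' test and 335 at a fold change of at least 2. It was 798 to 1546 with 1 pup left out. Whether the study used the methods' test for its arrays is not given in the sources used here. Features past the adjusted threshold numbered 0 to 125 with 1 pup left out, 125 only without LBW 2, for which the cause was not tested. The 3 pathway genes past the threshold became 2 to 5 with 1 pup left out and 1 (*Fos*) at a fold change of at least 2. Whether the replicate numbers pair the pups is not known. Deviations from group means correlated at 0.087, 0.104 and 0.055 for same-numbered pups, and each LBW pup correlated best with its own number. Correlations this small, with 3 pups per group, cannot decide the question. With the replicate number as a block, 1230 features and 4 pathway genes passed, and *Edn1* was at -1.58. How far dim signals lie above background limits what can be said of *Edn1* and *Edn2* in both groups.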
